A study of Homo sapiens with 6 samples.

Results

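The 10 acute phase protein genes HP, HPX, ORM1, ORM2, CRP, SAA1, SAA2, SAA4, CP and LBP were examined in lists of RNA pol II-occupied regions from HepG2, an established human hepatoma line. ChIP-seq was performed in untreated SHP-1 WT cells and in SHP-1 KO cells. The KO cells were edited with CRISPR/Cas9 and guides to PTPN6 exons encoding the phosphatase domain. The paper describes untransfected cells and cells given a nontargeting guide, and its ChIP-seq methods name the controls only as WT. SHP-1 is a protein-tyrosine phosphatase. The paper describes lines with and without the deletion that were grown from single cells after puromycin selection. The sources used here do not state which clone was sequenced, so a difference between genotypes and a difference between clones cannot be told apart. RPB1, the largest subunit of RNA pol II, and RPB1 phosphorylated on Ser2 of its C-terminal domain were each precipitated from cells of each genotype, and the authors called occupied regions against the input DNA of the same cells. The members were found by the gene to which the authors assigned each region. Of 46045 RPB1 regions in SHP-1 WT and 41605 in SHP-1 KO cells, 17 and 22 were assigned to the members. With phospho-Ser2 RPB1 it was 40 of 102674 in WT and 24 of 81012 in KO cells.

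Acute phase proteins are plasma proteins that the liver secretes in larger amounts during inflammation, mainly in response to interleukin-6 and interleukin-1, which act on hepatocytes through STAT3, C/EBP proteins and NF-kB. HP (haptoglobin) binds free hemoglobin and HPX (hemopexin) binds heme. ORM1 and ORM2 encode the α1-acid glycoproteins, which carry lipophilic drugs. CRP (C-reactive protein) and LBP (lipopolysaccharide-binding protein) recognize microbial surfaces. SAA1 and SAA2 encode the inducible serum amyloid A proteins carried on high-density lipoprotein, SAA4 encodes the constitutive form, and CP (ceruloplasmin) is a copper-carrying ferroxidase. RNA pol II starts transcription at promoters with little phosphorylation on Ser2, and this mark accumulates as the enzyme moves along the gene toward and past its 3′ end.

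There was 1 library for each antibody and genotype. No difference given here therefore has a replicate check or a test, and the values are descriptions of these libraries. Each region has a fold enrichment over input at its summit, which ranks regions within a list. Read counts are not part of the lists, which leaves the depth unknown, and the smallest −log10 q-value listed was 1.31. A gene with no region had none called, which does not show that RNA pol II was absent. PTPN6 itself had a strongest RPB1 region of 24.0-fold in WT and 17.2-fold in KO cells. Its phospho-Ser2 region was 4.03-fold in WT and 5.24-fold in KO cells. Neither readout checks a small coding lesion. All 8 hepatocyte markers (ALB, AFP, APOA1, APOB, TTR, TF, HNF4A and FGB) had a region in the WT list of each antibody. PTPRC and CD3E of blood cells, VWF and CDH5 of endothelium and COL1A1 and COL1A2 of fibroblasts had 0 regions in all 4 lists. LYZ, a lysozyme gene from the blood cell markers, had regions in all 4, the strongest of 39.2-fold.

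The members fell into 3 sets. SAA4, CP, ORM1 and ORM2 had regions in all 4 lists. HP and LBP each had 1 RPB1 region, in WT cells only. HPX, CRP, SAA1 and SAA2 had none in any list. Thus 6 members were occupied by RPB1 in WT cells and 4 in KO cells, and 4 carried phospho-Ser2 RPB1 in each. Of 20056 protein-coding genes, 57% had an RPB1 region in WT and 54.8% in KO cells, and 51.3% and 46.7% had a phospho-Ser2 region, so the members' counts were close to those of protein-coding genes at large. In all, 36.0% of these genes had a region in no list. By strongest RPB1 region in WT cells, SAA4 (22.8-fold) was followed by CP (16.1-fold), LBP (7.21-fold), ORM1 (7.01-fold), ORM2 (6.51-fold) and HP (4.70-fold). With 1 library, no neighbors in this order can be separated from error. Among the strongest RPB1 regions of the 14164 genes of the WT list, SAA4 stood at percentile 49.6, CP at 37.0, LBP at 18.2, ORM1 at 17.7, ORM2 at 15.9 and HP at 6.49. For phospho-Ser2 RPB1 the percentiles among genes were 92.3 in WT and 48.9 in KO cells for SAA4, and 67.8 and 90.7 for ORM2. The ranks given below for single regions are among all regions of a list.

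**Figure D1:**
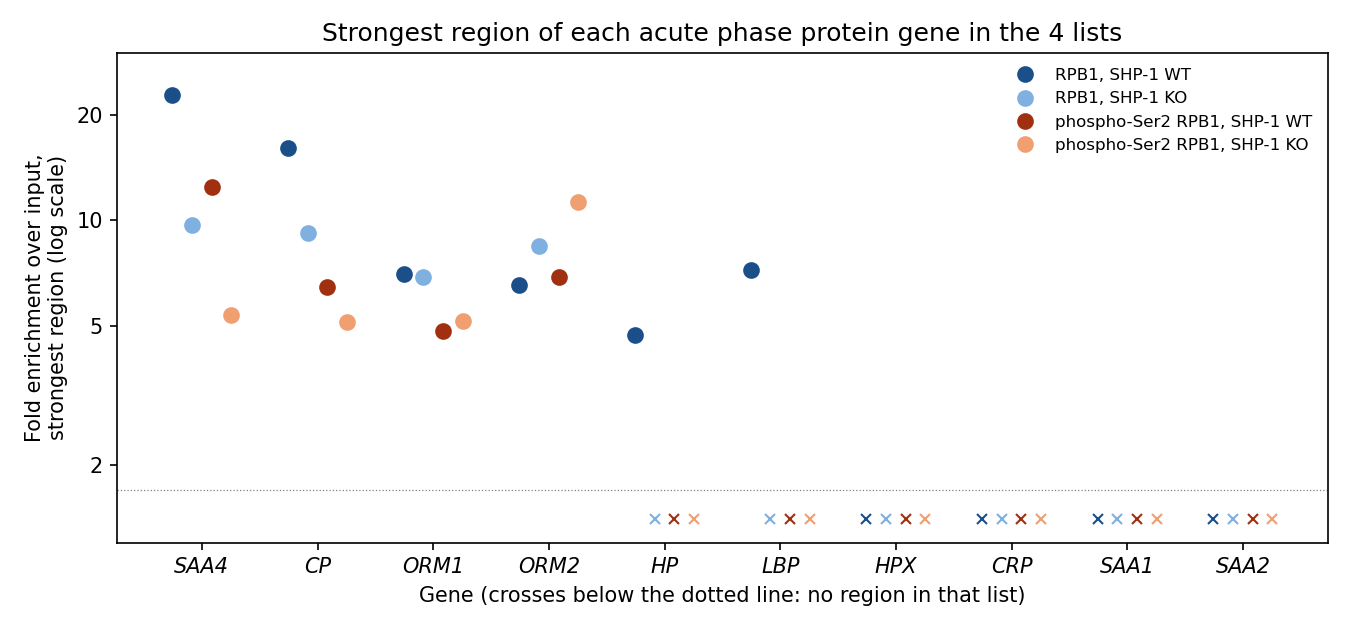
Fold enrichment over input (log scale) of the strongest region of each of the 10 genes in the 4 lists, 1 library each. Points are fold enrichments and crosses mark genes with no region. SAA4 and CP were lower in SHP-1 KO with both antibodies (SAA4 from 22.8 to 9.71 for RPB1), and ORM2 was higher with both (from 6.86 to 11.3 for phospho-Ser2 RPB1).

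SHP-1 KO and WT cells were compared gene by gene through the strongest region. Fold enrichments are not scaled between libraries, and over the 12877 genes with an RPB1 region in both genotypes the median KO to WT ratio was 0.742, with the central 95% of genes from 0.377 to 1.52. For phospho-Ser2 RPB1 the median over 10870 genes was 0.936 (central 95%, 0.506 to 1.73). SAA4 had a ratio of 0.426 for RPB1 and 0.431 for phospho-Ser2 RPB1, placing it at percentile 4.63 and 1.10 among gene ratios. CP had ratios of 0.570 (percentile 19.7) and 0.794 (percentile 26.9). ORM1 was near 1 with both antibodies, at 0.979 (percentile 80.6) and 1.06 (percentile 68.5), and ORM2 was above 1 with both, at 1.30 (percentile 94.4) and 1.65 (percentile 96.7). For ORM2, the RPB1 ratio compares a WT region upstream of the gene with a KO region in intron 3, and place by place the ratios were 0.667 upstream, 1.44 at exon 3 and 2.04 in intron 3. For SAA4, it compares the WT region past the 3′ end with the KO promoter, and place by place the ratios were 0.678 at the promoter, 0.398 in the body and 0.330 past the 3′ end. Divided by the median of all genes, the RPB1 ratios became 0.574 for SAA4, 0.769 for CP, 1.32 for ORM1 and 1.75 for ORM2, so ORM1 lies below 1 on one scale and above it on the other. When fold enrichment was multiplied by region length and summed over the gene, the RPB1 ratios of SAA4 and ORM2 moved further from 1, to 0.195 and 2.30, and the phospho-Ser2 ratio of SAA4 to 0.232. No median over all genes was computed for this summed measure, so these values cannot be set against genes at large.

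A ratio past 1.5-fold in either direction was counted. For RPB1, 2 members were lower in KO cells by this measure (SAA4 and CP), against 31.5% of the 14746 genes with a region in either list. None of the members was higher by strongest region, against 2.34% of genes, although intron 3 of ORM2 was past 1.5-fold place by place. HP and LBP were in the WT list only, as were 8.73% of genes, and 0 members were in the KO list only, against 3.95%. For phospho-Ser2 RPB1, 1 member was lower (SAA4), against 9.56% of 13303 genes, and 1 was higher (ORM2), against 4.67%. None of the members was in 1 phospho-Ser2 list only, where 14.1% of genes were in WT only and 4.23% in KO only. The median ratio over the 4 members in both lists was 0.775 for RPB1 and 0.929 for phospho-Ser2 RPB1, close to the medians of all genes. SAA4 and CP were on the lower side and ORM2 on the higher side with both antibodies.

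**Figure D2:**
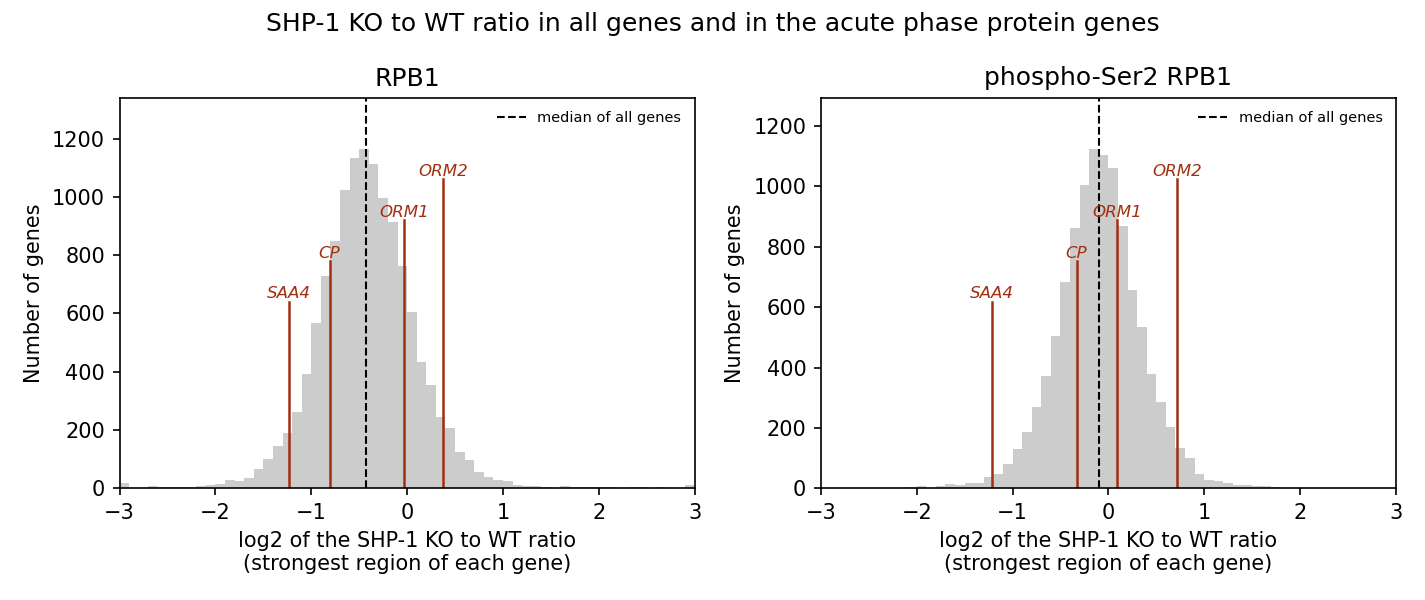
Number of genes by log2 of the SHP-1 KO to WT ratio of the strongest region, for RPB1 and phospho-Ser2 RPB1, in bins whose outermost also hold all values beyond them. Red lines mark the 4 acute phase protein genes with a region in both lists, their heights having no scale, and the dashed line marks the median of all genes (ratio 0.742 for RPB1 and 0.936 for phospho-Ser2 RPB1). SAA4 lies in the left tail of both distributions and ORM2 toward the right tail of both.

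SAA4, the constitutive serum amyloid A gene, had the strongest RPB1 occupancy of the members in WT cells. At its promoter, in its body and past its 3′ end the KO regions under the main WT regions were lower. For RPB1 the promoter ratio of 0.678 was near the median ratio of 0.742 over all genes. The ratios in the body (0.398) and past the 3′ end (0.330) were further below it. It lies at chr11:18231355-18236802 of hg38 on the reverse strand, with 4 exons, and the annotated readthrough gene SAA2-SAA4 overlaps it on the same strand. At its promoter, RPB1 was 14.3-fold enriched in WT cells over 1473 bp (18235601 to 18237073) and 9.71-fold in KO cells over 643 bp (18236326 to 18236968). The summit was 49 bp from the start of the gene in WT and 83 bp in KO cells. Inside the gene, WT cells had a region of 2817 bp with a fold enrichment of 14.3 (18231565 to 18234381), where KO cells had 3 shorter regions, the strongest of 5.69-fold. A weak WT region in intron 2 (18234480 to 18234750, 4.48-fold) had no KO counterpart, and a weak KO region further upstream in that intron (18234971 to 18235213, 4.21-fold) had no WT counterpart.

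The highest RPB1 value at SAA4 was past its 3′ end. In WT cells a region of 3835 bp (18227670 to 18231504) reached a fold enrichment of 22.8 at a summit 636 bp beyond the gene end, rank 7587 of 46045. KO cells had 4 regions under it, together 2437 bp long, with fold enrichments from 3.54 to 7.53. The strongest RPB1 region of the gene was thus the 3′ region in WT and the promoter region in KO cells, and that KO promoter region ranked 11441 of 41605. RPB1 regions covered 8396 bp at SAA4 in WT and 4697 bp in KO cells, although the number of regions was 4 in WT and 9 in KO cells.

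Phospho-Ser2 RPB1 followed the same layout. In WT cells 1 unbroken region of 7391 bp (18227628 to 18235018) ran from the body of SAA4 past its end, with a fold enrichment of 12.4 and rank 1121 of 102674. In KO cells 5 regions lay under it, together 4923 bp long, and the strongest reached 5.36-fold, rank 11724 of 81012. At the promoter the fold enrichment was 5.17 in WT and 2.28 in KO cells. Covered sequence extended 4562 bp past the gene end in WT and 2996 bp in KO cells. Genes with regions in both lists within 1 Mb of the SAA genes had RPB1 ratios from 0.615 to 1.29 (14 genes, median 0.840) and phospho-Ser2 ratios from 0.657 to 1.35 (11 genes, median 0.987). The SAA4 ratios lay below both ranges.

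**Figure D3:**
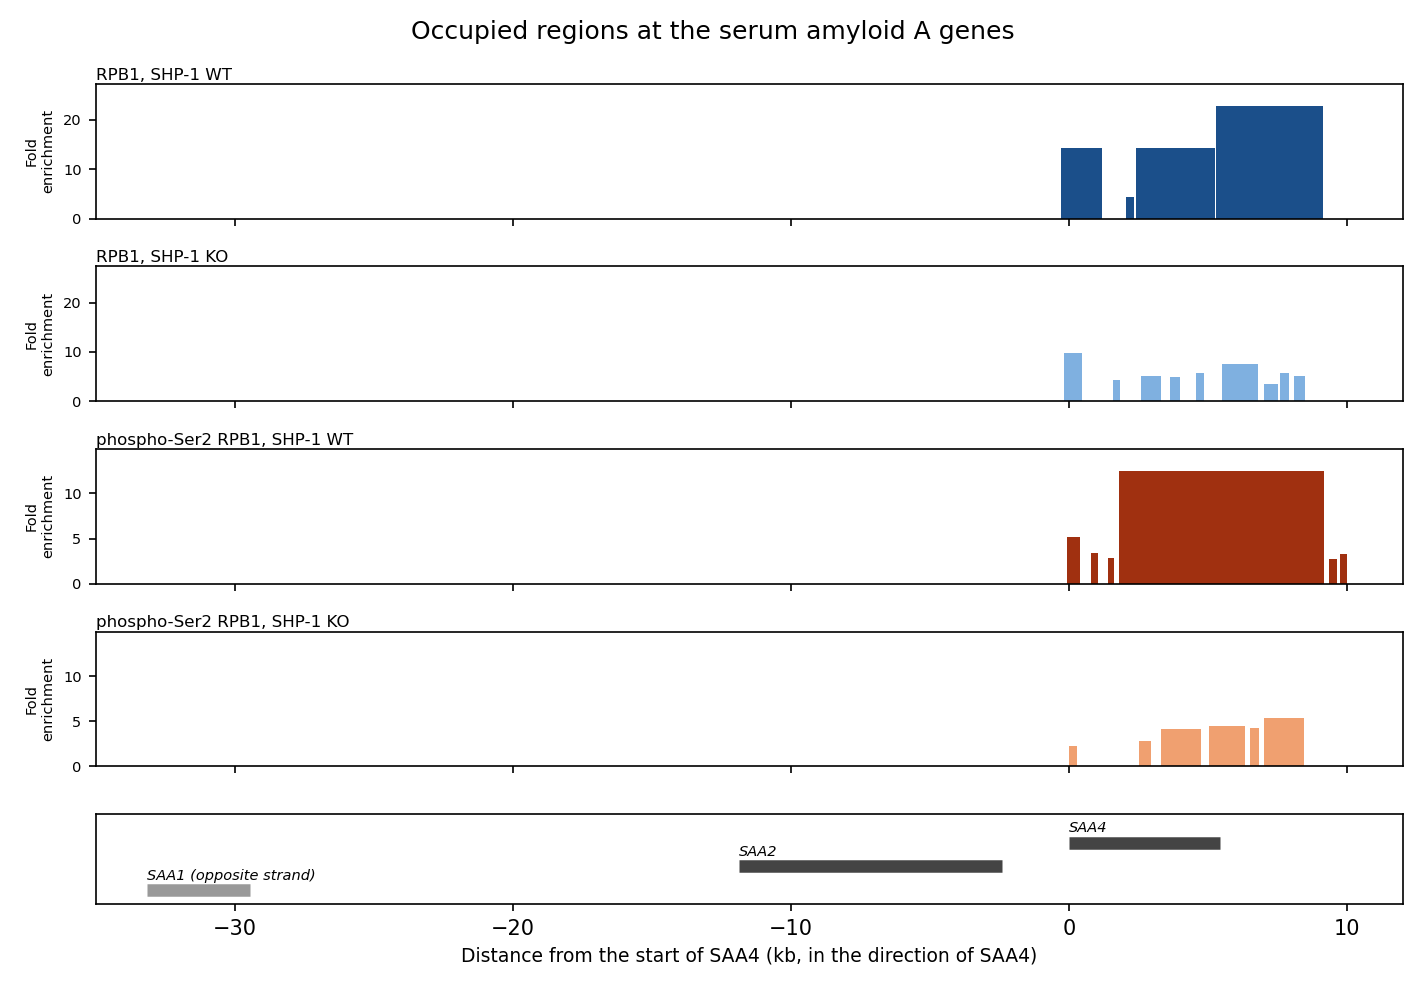
Regions in the 4 lists along the serum amyloid A genes, in kb from the start of SAA4 and in its direction. Each bar spans 1 region, its height is the fold enrichment at that region's summit, and the bottom row shows the genes. The tallest bar at SAA4 was lower in SHP-1 KO with both antibodies (RPB1 9.71 against 22.8 in WT, phospho-Ser2 RPB1 5.36 against 12.4), and SAA2 and SAA1 had none.

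SAA1 (chr11:18266260-18269977, forward strand) and SAA2 (chr11:18239223-18248668, reverse strand) had no region in any list. The region nearest to SAA2 was that at the SAA4 promoter, 2150 bp away in the WT RPB1 list and 2430 bp away in the KO phospho-Ser2 list. The nearest RPB1 region to SAA1 was the same one, 29187 bp away in WT cells. Of the 50-bp windows of SAA1, 49.1% occur unchanged in SAA2, and reads from such windows cannot be placed in 1 gene. SAA4 shares 0 such windows with SAA1 or SAA2.

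The promoters of SAA4, ORM1, CRP and HPX are shown because the genes of the first pair had RPB1 regions and those of the second had none called. At SAA4 an RPB1 region covered the start of the gene. The first RPB1 region of ORM1 began 58 bp past the start in WT and 61 bp in KO cells, outside the printed stretch. They were taken from the RefSeq table of promoters (GRCh38.p14), which held 4 of the 10 members. Each run has the 180 bases before the transcription start and the first 20 bases of the transcript, and capitals mark matches to the motifs searched on both strands.
SAA4 (chr11:18236783-18236982, reverse strand): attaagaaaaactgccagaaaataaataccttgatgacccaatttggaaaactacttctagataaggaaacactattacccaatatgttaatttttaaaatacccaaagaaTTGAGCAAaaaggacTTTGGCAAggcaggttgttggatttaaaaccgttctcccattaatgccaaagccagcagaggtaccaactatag
ORM1 (chr9:114322918-114323117, forward strand): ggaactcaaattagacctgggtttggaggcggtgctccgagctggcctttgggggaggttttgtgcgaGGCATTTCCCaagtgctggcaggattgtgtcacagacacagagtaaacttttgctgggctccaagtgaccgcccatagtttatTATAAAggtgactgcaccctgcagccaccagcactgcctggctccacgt
CRP (chr1:159714570-159714769, reverse strand): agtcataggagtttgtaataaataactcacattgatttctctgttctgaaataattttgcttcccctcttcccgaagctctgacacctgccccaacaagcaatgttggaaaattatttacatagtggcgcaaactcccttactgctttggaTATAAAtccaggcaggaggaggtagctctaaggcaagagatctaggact
HPX (chr11:6440968-6441167, reverse strand): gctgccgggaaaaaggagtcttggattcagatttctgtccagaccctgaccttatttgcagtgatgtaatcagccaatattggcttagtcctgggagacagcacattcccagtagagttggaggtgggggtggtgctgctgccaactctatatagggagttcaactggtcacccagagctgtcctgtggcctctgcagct

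The motifs were the TATA box (TATAAA), a STAT site (TTCNNNGAA), a C/EBP site (TTGCNNAA) and an NF-kB site (GGG and CC with 5 bases between them), and none shares letters with another in the matches printed. They were searched in the 300 bases around the start that the table gives. ORM1 and CRP hold TATAAA with its last base at position −24, a motif found in 11.5% of 35116 promoters of this length. SAA4 has no TATAAA and 3 matches to the C/EBP letters, of which the 2 nearest the start are printed, and 10.5% of promoters hold these letters. ORM1 has 1 match to the NF-kB letters, which 58.7% of promoters hold. HPX has 1 C/EBP and 1 NF-kB match, both outside the printed stretch, and no STAT match lies in these 4 windows (7.66% of promoters have one). A match is a description of letters and not an occupied site.

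At ORM1 and ORM2, the adjacent α1-acid glycoprotein genes, KO values were higher than WT values inside ORM2. The RPB1 regions shared by both genotypes had lower KO values at ORM1 and upstream of ORM2. The ratios of those at ORM1 nevertheless lay above the median ratio of 0.742 over all genes. ORM1 lies at chr9:114323098-114326479 and ORM2 at chr9:114329869-114333251, both on the forward strand with 6 exons. Of the 50-bp windows of ORM1, 50.0% occur unchanged in ORM2, so the reads behind either gene's values may be split between them. The values of this pair are uncertain for that reason, and the effect was not tested.

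At ORM1, RPB1 regions covered the first part of the gene in both genotypes. The region in intron 1 had a fold enrichment of 7.01 in WT (114323156 to 114323504) and 5.81 in KO cells (114323159 to 114323364). A region with its summit in intron 3 had 5.01 in WT and 4.75 in KO cells, and a weaker one between them had 4.01 and 3.65. The KO to WT ratios of these 3 regions were 0.829, 0.949 and 0.911 in that order. They were below 1 but above the median ratio of 0.742 over all genes. KO cells alone had an RPB1 region in intron 5 (114325632 to 114326195, 6.86-fold), and it was the strongest region of ORM1 there. The single phospho-Ser2 region of ORM1 was in intron 3 in WT cells (114324645 to 114324870, 4.83-fold) and in intron 5 in KO cells (114325835 to 114326063, 5.14-fold). These 2 regions did not overlap, so the ORM1 ratio of 1.06 compares different places of the gene.

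At ORM2, RPB1 regions in the gene were stronger in KO cells. In the stretch of exon 3, the fold enrichment was 5.51 in WT (114330672 to 114330939) and 7.92 in KO cells (114330616 to 114330913). In intron 3 it was 4.13 in WT (114331150 to 114331349) and 8.44 in KO cells (114331153 to 114331745). KO cells also had a region near the start (114329933 to 114330136, 6.34-fold) and one in intron 5 (114332405 to 114332973, 6.86-fold) that were not listed in WT cells. Upstream of the gene the order was the opposite, with 6.51 in WT (114327711 to 114328418) and 4.34 in KO cells (114328213 to 114328745). RPB1 regions assigned to ORM2 covered 1176 bp in WT and 2398 bp in KO cells, of which 201 bp in KO cells lay in the next gene.

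The strongest phospho-Ser2 region of ORM2 was in intron 5, near the 3′ end. It had a fold enrichment of 6.86 in WT (114332440 to 114332862, rank 6096 of 102674) and 11.3 in KO cells (114332429 to 114332972, rank 1202 of 81012). In intron 3 the value was 2.57 in WT and 6.62 in KO cells. In KO cells, 3 further regions had no counterpart in WT cells, 1 upstream of the gene (4.65-fold), 1 at exon 3 (4.10-fold) and 1 in the next gene downstream (114337243 to 114337630, 3.86-fold). Each of the 6 WT regions of ORM2 shared at least 1 bp with a KO region.

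Some regions assigned to ORM2 lie in AKNA, the next gene downstream, which encodes an AT-hook protein and is read in the opposite direction. Of the phospho-Ser2 regions assigned to ORM2, 4 of 6 in WT and 3 of 7 in KO cells overlapped AKNA, with maxima of 5.33-fold and 5.98-fold. Among RPB1 regions it was 0 of 3 and 1 of 6. The strongest ORM2 regions lay outside AKNA in all 4 lists, so the ORM2 ratios do not depend on them. AKNA itself was assigned 1 phospho-Ser2 region in WT cells (3.01-fold) and 37 in KO cells (at most 6.23-fold), with an RPB1 maximum of 19.2-fold in WT and 11.0-fold in KO cells. Within 1 Mb of the ORM genes, 131 other phospho-Ser2 regions were listed in WT and 170 in KO cells. The phospho-Ser2 ratios of 9 genes there ranged from 0.467 to 2.07, with a median of 1.00, and the highest was that of AKNA itself. The RPB1 ratios of 13 genes ranged from 0.299 to 1.60, with a median of 0.773. The ORM2 ratios lay within these ranges and above both medians.

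**Figure D4:**
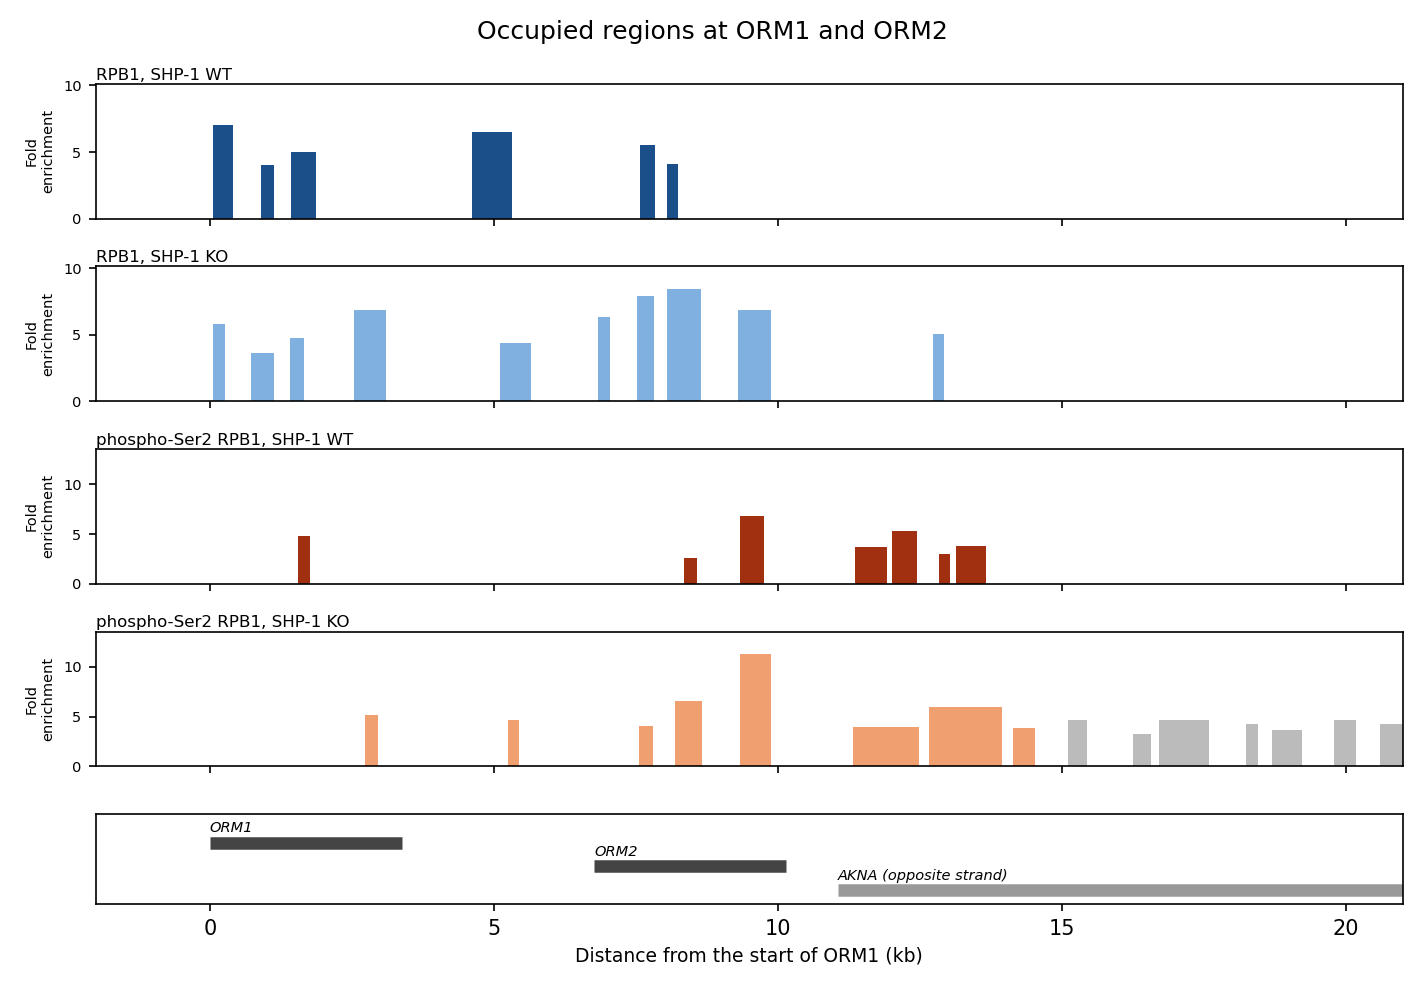
Regions in the 4 lists along ORM1 and ORM2, in kb from the start of ORM1. Each bar spans 1 region, its height is the fold enrichment at the summit, and gray bars are regions assigned to AKNA, whose 3′ part is shown. In SHP-1 KO, both genes had an RPB1 region near the 3′ end (6.86-fold each) that was not listed in WT, and the phospho-Ser2 bar in intron 5 of ORM2 was taller (11.3 against 6.86).

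The sequences at the intron 5 regions are shown because they bear on how far the ORM values can be told apart. The stretch of 101 bases around the ORM1 phospho-Ser2 summit in KO cells was set beside its match in ORM2 (hg38, forward strand), with capitals at the 3 bases that differ.
ORM1 (chr9:114325866-114325966): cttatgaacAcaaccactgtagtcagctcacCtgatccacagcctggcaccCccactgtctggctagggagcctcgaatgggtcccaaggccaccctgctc
ORM2 (chr9:114332643-114332743): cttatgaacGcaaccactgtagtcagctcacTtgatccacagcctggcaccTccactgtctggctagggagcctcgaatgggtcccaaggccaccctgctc

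The stretches are 97.0% identical and lie 6777 bp apart, while the summits of the strongest phospho-Ser2 regions in KO cells lie 6745 bp apart. The differing bases are at positions 10, 32 and 52, so each 50-bp window of the stretch differs from its match in the other gene. How the reads of this stretch were placed was not tested. The intron 5 RPB1 regions that KO cells alone had in ORM1 and ORM2 have the same fold enrichment, 6.86. This value is shared by 303 regions of that list, since fold enrichments in the lists take repeated values.

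CP, the ceruloplasmin gene, had its strongest RPB1 region not at its promoter but upstream of it, and that region was lower in KO cells. The gene lies at chr3:149162410-149221829 on the reverse strand, with 19 exons in its main transcript. The upstream region spanned 2882 bp in WT cells (149223592 to 149226473) with a fold enrichment of 16.1 and a summit 2959 bp before the start, rank 9827 of 46045. In KO cells it spanned 2498 bp (149223765 to 149226262) with a fold enrichment of 9.17, rank 11958 of 41605. The WT region covers the whole of a long noncoding RNA gene, ENSG00000286714 (chr3:149224138-149226334), on the forward strand. The authors assigned it to CP as a distal intergenic region, and whether RNA pol II there transcribes CP cannot be read from these lists.

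Inside CP, RPB1 was weak. WT cells had a region of 4.31-fold in intron 1 (149220884 to 149221357) and one of 3.68-fold further in (149216034 to 149216273). KO cells had neither and instead had 1 region of 3.71-fold at the start of the gene (149221819 to 149222125). These values lay below the median of all regions, 5.51 in the WT and 5.62 in the KO list.

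Phospho-Ser2 RPB1 was spread over many short regions of CP in WT cells and fewer in KO cells. There were 27 regions covering 12197 bp in WT and 10 covering 3109 bp in KO cells. Within the gene there were 20 in WT and 7 in KO cells, and upstream 7 and 3. In WT cells 15 of the 20 had summits between 33.4 and 44.4 kb from the start, and the strongest, in intron 12, had a fold enrichment of 6.44 (149184282 to 149185154, rank 7545 of 102674). The other 5 WT regions, between 5.48 and 28.8 kb, had no KO counterpart, since all 7 KO regions within the gene lay between 35.8 and 44.5 kb. The boundary of 30 kb was chosen after the regions were seen. The strongest KO region was in intron 15 (149179107 to 149179465, 5.12-fold, rank 14304 of 81012) and lay over a weaker part of the WT profile, where the WT region had 3.88. Under the strongest WT region, KO cells had 3.20. The ratio of 0.794 between strongest regions therefore compares different introns. By fold enrichment multiplied by length and summed over the gene it was 0.205, a measure with no median over all genes computed.

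Near the 3′ end of CP, regions inside its annotated bounds but assigned to HPS3, the neighboring gene, numbered 4 in WT (at most 5.68-fold) and 2 in KO cells (at most 3.49-fold). Genes within 1 Mb of CP had phospho-Ser2 ratios from 0.689 to 2.77 (5 genes, median 0.734) and RPB1 ratios from 0.376 to 1.25 (11 genes, median 0.761), and the CP ratios lay within both ranges. Regions of genes other than CP numbered 59 in WT and 40 in KO cells for phospho-Ser2 RPB1 there. The median phospho-Ser2 ratio of 0.734 was that of HPS3, whose strongest WT region was the 5.68-fold region inside the bounds of CP.

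**Figure D5:**
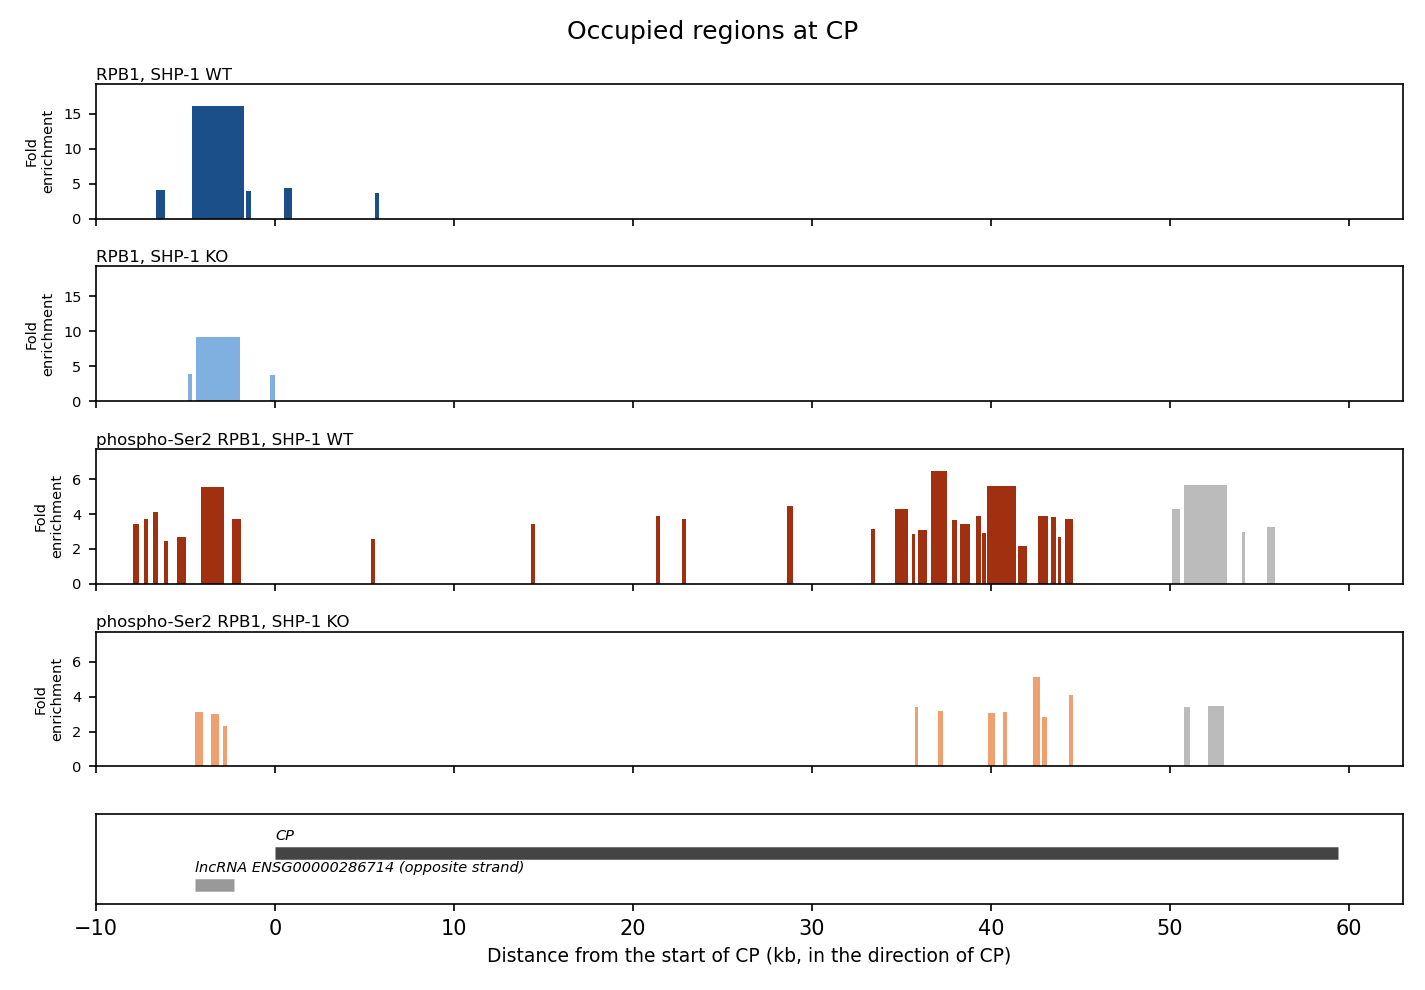
Regions in the 4 lists along CP, in kb from its start and in its direction. Each bar spans 1 region, its height is the fold enrichment at the summit, and gray bars are regions assigned to HPS3. RPB1 was strongest upstream of the gene (16.1 in WT, 9.17 in SHP-1 KO), and the 20 phospho-Ser2 regions within the gene in WT compare with 7 in SHP-1 KO.

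HP and LBP had 1 RPB1 region each, in WT cells only. That of HP was at its promoter (chr16:72054566-72054775, 210 bp, 4.70-fold), with the summit 207 bp past the start of the gene (72054505 to 72061055, forward strand), and it ranked 30613 of 46045. That of LBP was 760 bp long and 7.21-fold enriched (chr20:38343213-38343972), ended 2510 bp before the start of the gene (38346482 to 38377013, forward strand) and ranked 16546. Both are single regions of modest fold enrichment, and the nearest KO RPB1 region lay 1800 bp past the end of HP and 38149 bp from LBP.

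HP stands beside HPR, which encodes haptoglobin-related protein, and 21.1% of the 50-bp windows of HP occur unchanged in HPR. HPR was assigned 8 RPB1 regions in WT (at most 10.1-fold) and 4 in KO cells (at most 5.16-fold), a ratio of 0.511. Its phospho-Ser2 regions numbered 11 in WT and 3 in KO cells, with maxima of 4.35-fold and 4.19-fold. A WT phospho-Ser2 region assigned to HPR began 632 bp past the end of HP (72061687 to 72061918, 3.46-fold). HP and this region lie within the annotated bounds of TXNL4B (72044289 to 72094431), which is read in the opposite direction, and the authors annotated the region to an intron of TXNL4B. The lists do not show which of these genes that RNA pol II was on.

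HPX (chr11:6431049-6442617, reverse strand) and CRP (chr1:159712289-159714589, reverse strand) had no region in any list. The RPB1 region nearest to HPX was assigned to APBB1 and lay 11515 bp away in WT and 11603 bp away in KO cells. Around CRP the nearest RPB1 region, at PIGM, was 310674 bp away in WT and 310469 bp in KO cells, a longer distance than for any of the other 3 members with no region.

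The positions of the members' regions were set side by side between genotypes, with 1 shared bp counted as overlap. Of the 17 WT RPB1 regions, 10 were overlapped by a KO region (58.8%; 95% Wilson interval, 36.0% to 78.4%), and 15 of the 22 KO regions met a WT region (68.2%; 47.3% to 83.6%). For phospho-Ser2 RPB1 it was 15 of 40 WT regions (37.5%; 24.2% to 53.0%) and 20 of 24 KO regions (83.3%; 64.1% to 93.3%). Over all regions of the lists, these shares were 61.9% of WT and 74.9% of KO regions for RPB1, and 52.2% and 69.9% for phospho-Ser2 RPB1. The intervals cover counting error only, and regions of 1 gene are not independent of each other. Most of the unmatched WT phospho-Ser2 regions were those of CP, where 7 of 27 were overlapped.

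The other genes of the acute phase response gave the background for these differences. Of 16 further acute phase genes, 15 had regions of both antibodies in both genotypes, APCS having none. For RPB1, 7 were at least 1.5-fold lower in KO cells (FGA, FGG, C3, ITIH3, ITIH4, A2M and LRG1) and 0 were higher. Among genes with a region in either list, 31.5% were lower and 2.34% higher. The median ratio was 0.720, beside 0.742 over all genes. For phospho-Ser2 RPB1, 6 were lower (SERPINA1, FGA, FGB, C4BPA, ITIH3 and ITIH4) and 1 was higher (LRG1). The shares among genes with a region in either list were 9.56% and 4.67%. The median ratio was 0.733, beside 0.936 over all genes. ITIH4, a heavy chain of the inter-α-trypsin inhibitor family, had the lowest ratios of this list with both antibodies, from 23.9-fold to 5.28-fold for RPB1 and from 22.9-fold to 3.86-fold for phospho-Ser2 RPB1. The fibrinogen chain gene FGA went from 25.3-fold to 13.0-fold for RPB1. SERPINA3, which encodes α1-antichymotrypsin, had 19.2-fold in WT and 19.5-fold in KO cells, and HAMP, which encodes hepcidin, 10.1-fold in both.

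Of 15 genes of the cytokine pathway upstream of the acute phase genes, all 15 had RPB1 regions in both genotypes. RPB1 was at least 1.5-fold lower in KO cells at 6 of them (IL6ST, JAK1, TYK2, STAT3, SOCS3 and RELA), against 31.5% of genes with a region in either list. The median ratio was 0.734, beside 0.742 over all genes. STAT3, the transcription factor activated by interleukin-6, went from 34.8-fold to 19.8-fold, and SOCS3, an inhibitor of that signal, from 27.3-fold to 10.6-fold. Phospho-Ser2 RPB1 was lower at 6 of the 11 genes with regions in both (IL6ST, JAK2, STAT3, NFKB1, CEBPB and CEBPD). The share of 9.56% is over genes with a region in either list, a wider base. The median ratio was 0.661, beside 0.936 over all genes. Phospho-Ser2 RPB1 was in the WT list only at IL6R and TYK2 and in the KO list only at IL1R1. None of these genes was at least 1.5-fold higher in KO cells with either antibody.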

How the data were processed

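The deposited region lists were used as they are, 1 for each antibody and genotype. Per the paper and the submitters' processing notes, the authors ran the MUGQIC ChIP-seq pipeline (Trimmomatic for trimming, BWA for alignment to hg38, MACS2 for narrow peaks, with each genotype's own input as control). Versions are not given in the sources used here. For each region the deposited values are its length, the fold enrichment relative to input at its summit (a ratio), and a p-value and q-value, both as −log10. The authors also assigned a genomic feature and a nearest gene. Their csaw table, which holds their own comparison of RPB1 in KO and WT cells, was not used. The 2 input libraries enter only through the fold enrichment.

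Regions were ranked by fold enrichment within a list, and a gene's strongest region was compared between genotypes. Gene positions came from GENCODE release 44, and all regions lie within their hg38 chromosomes. The named genes are the 10 members, the genes next to them whose assignment touches their regions, and fixed lists of acute phase, cytokine pathway and marker genes. One item of the fixed lists is not reported here. The members and lists were chosen with earlier results of these data known. The alternatives were a minimum −log10 q-value of 5, regions by position (from 3 kb upstream to the gene end), distinct intervals, other ranks, a fold of 2, ratios relative to the median, fold enrichment multiplied by length, and reciprocal overlap of 50%. The overlap, coverage and ratio functions were tested on simulated data. Python 3.11.15, pandas 2.3.3, NumPy 2.4.6, SciPy 1.17.1 and Matplotlib 3.10.9 were used.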

Additional observations from a re-analysis of the deposited data

How the results depend on the processing

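With 1 library per condition no replicate could be left out, and the depth is unknown. With a minimum −log10 q-value of 5, the members' regions numbered 11 and 14 for RPB1 and 19 and 14 for phospho-Ser2 RPB1 (WT and KO). With a fold of 2, the lower RPB1 members numbered 1 (SAA4) and the higher phospho-Ser2 members 0. Relative to the median of all genes, 1 member was lower (SAA4) and 1 higher (ORM2) for RPB1. By fold enrichment multiplied by length, 1 member was higher for RPB1 (ORM2), and 2 were lower for phospho-Ser2 RPB1 (SAA4 and CP). Shares of all genes were not computed at a fold of 2, relative to the median or by fold enrichment multiplied by length. These member counts therefore have no background share beside them. With reciprocal overlap of 50%, the overlapped shares were 29.4% of WT and 22.7% of KO RPB1 regions, and 7.5% of WT and 12.5% of KO phospho-Ser2 regions. The shares over all regions were not computed at 50%, so these values cannot be set against the lists at large. The causes of these changes with setting were not tested. Counts by distinct intervals or by position stayed within 1.5 times those reported, while by position the covered length fell to 2260 bp for RPB1 at SAA4 in KO cells and to 643 and 1458 bp for phospho-Ser2 RPB1 at ORM2 in WT and KO cells. Position was added for the fold counts and ratios after the data were seen. No ratio past 1.5-fold changed direction by position, relative to the median or by fold enrichment multiplied by length, the alternatives run on ratios. Ranked among the strongest region of each gene, 16 of 18 percentiles moved by over 10 points. No paired analysis was possible because each condition has 1 library.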

Other observations

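The plasma proteins of the 6 negative acute phase genes fall during inflammation. RPB1 was at least 1.5-fold lower in SHP-1 KO cells at 2 of them, against 31.5% of genes with a region in either list. They were TTR (from 36.5-fold to 20.3-fold) and TF (from 93.8-fold to 46.7-fold), which encode transthyretin and transferrin. The median RPB1 ratio of the 5 genes in both lists was 0.697, beside 0.742 over all genes. For phospho-Ser2 RPB1, 1 was lower (TTR, ratio 0.590) and 1 higher (APOA1), against 9.56% and 4.67% of genes. The median phospho-Ser2 ratio was 1.06, beside 0.936 over all genes. APOA1, which encodes the main protein of high-density lipoprotein, had 1 RPB1 region in WT cells (4.02-fold) and none in KO cells, while its strongest phospho-Ser2 region was 3.91-fold in WT and 9.46-fold in KO cells. The antibodies also differed at C4BPA, which encodes a chain of the complement inhibitor C4b-binding protein, with an RPB1 ratio of 0.939 and a phospho-Ser2 ratio of 0.225 (from 14.4-fold to 3.23-fold). CEBPD, which encodes a C/EBP transcription factor, had an RPB1 ratio of 1.33 and a phospho-Ser2 ratio of 0.394. These differences between antibodies were not tested.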
